A study of Mus musculus with 4 samples.

Results

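The 32 genes described here are the tumour suppressor gene Trp53 with its regulators, the inhibitors of cyclin-dependent kinases, and genes that p53 is known to induce in growth arrest, DNA repair and apoptosis, together with the retinoblastoma gene Rb1, the nuclear lamina gene Lmnb1 and the apoptosis regulator gene Pawr. The genes are listed by name, and the list was chosen with earlier results of these data known. Signal decided which of a gene's probes stands for it and, by a filter, whether the gene was tested. All 32 had a probe among the 21154 genes named on the array, and 31 were among the 13567 genes tested, which needed a probe well above background either in the control or in every one of the 3 knockdowns. The exception was Eda2r, the gene of a death receptor that binds ectodysplasin, which was not well above background on any of the 4 arrays.

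The cultures compared were of primary mouse mesenchymal stromal cells (MSCs) at passage 5, which had been transduced with a retrovirus carrying a short hairpin RNA. The shIslr cultures, 3 in number, each carried a different hairpin against Islr, which encodes Meflin, a cell surface protein with an immunoglobulin domain, and are called hairpins 1, 2 and 3 after their label numbers. The shControl culture, 1 in number, carried a control hairpin, of which the labels say no more. Each culture was measured on 1 one-colour Agilent array, and whether the 4 cultures share a preparation of cells is not given in the labels, so n = 3 counts hairpins and not animals.

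The p53 protein is a transcription factor that is held at a low level by the ubiquitin ligase Mdm2 and by Mdm4, and that builds up after DNA damage and other stress. It then induces Cdkn1a, whose product p21 blocks cyclin-dependent kinases, along with genes for repair, for cell death and for its own degradation. In cultured stromal cells the INK4 and ARF products of the Cdkn2a and Cdkn2b genes are known to accumulate over passages and to act through RB and p53, while loss of lamin B1 is a marker of senescence.

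Signals are given as normalised signal, the processed spot intensity after each array was scaled to the same 75th percentile. Between 49.4% and 53.8% of features stood well above background on each array, and no feature was saturated. The targeted gene, Islr, had signals of 11.4, 69.8 and 3.42 on hairpins 1 to 3, against 442 on the control array, and on hairpins 1 and 3 it was not well above background. It was 6.33-fold lower on hairpin 2, and at least 20.5-fold and 29.6-fold lower on hairpins 1 and 3 against the lowest signal called well above background on each. All 10 mesenchymal stromal marker genes looked up, such as Pdgfrb, Thy1 and Col1a1, were well above background on all 4 arrays. Of the markers of other cell types, 4 of 7 haematopoietic, 2 of 5 endothelial and 1 of 4 epithelial genes passed the filter, while Ptprc, Adgre1, Lyz2, Cdh5, Tek, Emcn, Epcam, Cdh1 and Krt8 did not. The summed signal of the haematopoietic genes that passed was 12249, 10184 and 7739 on hairpins 1 to 3, against 11470.2 on the control array, that of the endothelial genes 3496, 3273 and 3396 against 3502, and Krt18, the epithelial gene that passed, was at 60.3, 138 and 76.2 against 82.1. Most of the haematopoietic sum is Itgam, which had hairpins on both sides of the control, while Cd14 was above it on all 3 hairpins (0.56 ± 0.18, log2) and Cd68 and Csf1r below it on all 3 (-0.64 ± 0.33 and -0.31 ± 0.10). The part of these genes in the results below was not tested.

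Each gene was compared between the shIslr arrays and the shControl array. Differences are log2, hairpin minus control, summarised over the 3 hairpins by their mean ± SD (n = 3). They were tested with limma across all 13567 genes with Benjamini-Hochberg adjustment, with the 3 hairpins as replicates against the lone control array. Over all genes, 0 (0%) were called higher and 47 (0.346%) lower in the shIslr arrays at an adjusted p under 0.05, and of the 31 members 0 were called in either direction. The 47 calls became 0 when any 1 hairpin was left out, with normexp background correction, without the filter, with an intensity trend, and among genes above background on all 4 arrays. Pawr had the smallest adjusted p of the members, 0.0754, and the other members had adjusted p of 0.964 or more. At an unadjusted p under 0.05, limma gave 3 members higher (Trp53, Lmnb1 and Pawr) beside 1.52% of all genes, and 2 lower (Gadd45a and Trp53inp1) beside 3.31% of all genes.

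All 3 hairpins lay above the control for 9 members and below it for 9, and for 13 they lay on both sides. Over all genes tested, 27.6% had all 3 hairpins above the control and 24.6% had all 3 below it, so these counts are close to the background. The 3 differences of a gene share the control array. The median over the 31 members was -0.10, 0.02 and 0.28 on hairpins 1 to 3 and 0.10 for the mean, beside -0.01, 0.00238, 0.05 and 0.00988 over all genes. At least 1.5-fold above the control on all 3 hairpins was 1 member, Pawr (0.958% of all genes), and at least 1.5-fold below on all 3 was 1, Trp53inp1 (3.04% of all genes). All 31 members were above background on all 4 arrays, and over the 12722 genes of which that holds the share at least 1.5-fold below was 1.29%. Trp53 lay just under that size on hairpin 1, with a log2 difference of 0.58, and past it on hairpins 2 and 3. In the plot of differences by hairpin, the 9 members with all 3 points right of 0 include 5 apoptosis genes, and the 9 with all 3 points left of 0 include 4 cyclin-dependent kinase inhibitor genes.

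**Figure D1:**
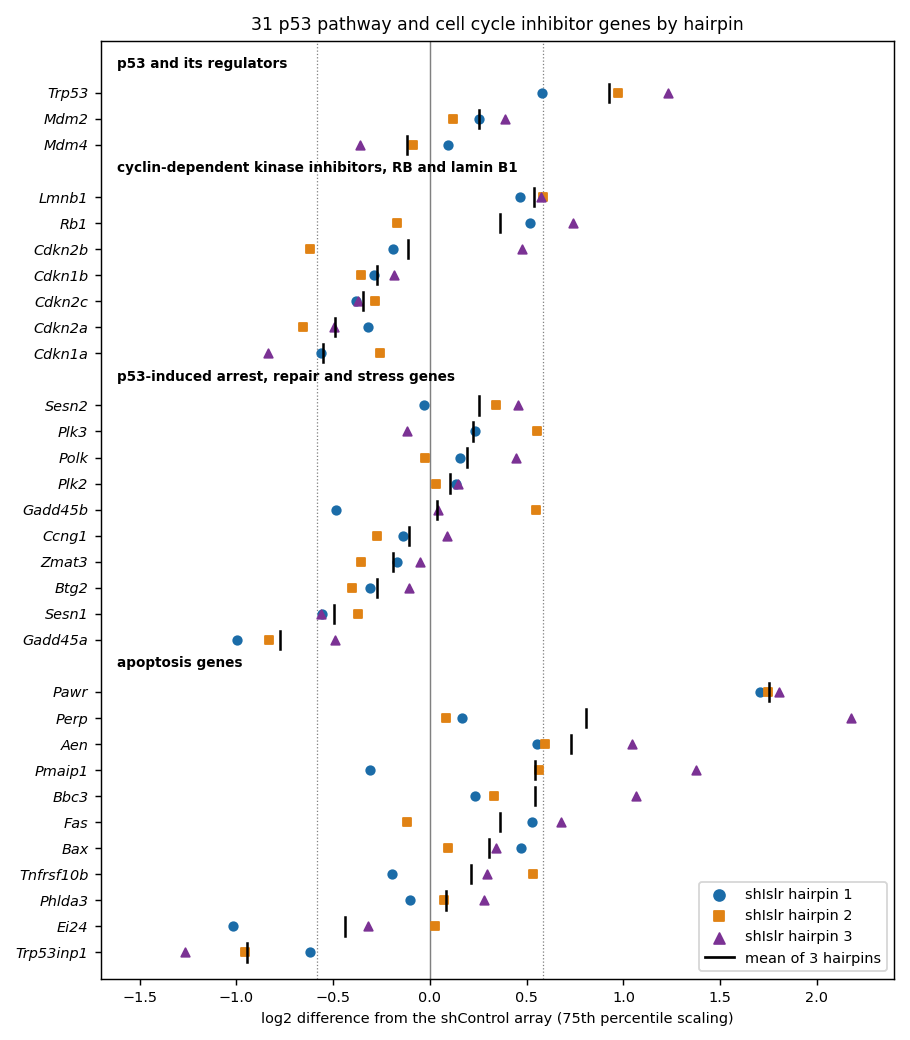
Log2 difference from the shControl array (x axis, 75th percentile scaling) of the 31 members above background, by role (y axis). Points are the 3 shIslr hairpins, black bars their mean, and dotted lines mark 1.5-fold; Pawr is the 1 gene with all 3 points right of the upper line and Trp53inp1 the 1 gene with all 3 left of the lower line.

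Sequence upstream of these genes was compared because p53 acts by binding DNA. RefSeq promoter windows of build GRCm38.p6 were found for 25 of the 32 members (34 different windows of the 250 bases before a start, 62.6% G or C, beside 53.2% over all windows). The p53 half-site consensus, which reads the same on both strands, was searched without mismatches. It was found in 10 member windows (29.4%), beside 7.13% of all 32851 windows of this length. Many members were listed as genes that p53 is known to induce, so the higher share is no result of the arrays. The 10 genes with a match were Aen, Bax, Ccng1, Cdkn1a, Ei24, Gadd45a, Mdm2, Polk, Sesn1 and Trp53. A gene was counted if any of its windows held a match. Of these, 4 had all 3 hairpins above the control (Aen, Bax, Mdm2 and Trp53), 3 had all 3 below it (Cdkn1a, Gadd45a and Sesn1) and 3 had hairpins on both sides. Of the other genes with a window, 3 had all 3 hairpins above, 4 below, 7 on both sides and 1, Eda2r, was not measured above background. A match is a run of letters and does not show that p53 binds there. Sequence outside these 250 bases was not searched, so a window without a match does not show that the gene lacks a p53 site. The windows below are shown because their genes, which hold a match, lay on opposite sides of the control, while that of Pawr, the member with the largest difference, holds none. Capitals mark exact matches to the half-site, and stretches with a mismatch are not marked.
Mdm2, chr10:117710759-117711008, minus strand: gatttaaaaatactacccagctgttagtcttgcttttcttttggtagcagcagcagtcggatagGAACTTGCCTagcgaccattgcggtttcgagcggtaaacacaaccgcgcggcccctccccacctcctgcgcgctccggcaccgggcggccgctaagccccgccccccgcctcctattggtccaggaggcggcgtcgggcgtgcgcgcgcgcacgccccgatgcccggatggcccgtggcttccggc
Bax, chr7:45466899-45467148, minus strand: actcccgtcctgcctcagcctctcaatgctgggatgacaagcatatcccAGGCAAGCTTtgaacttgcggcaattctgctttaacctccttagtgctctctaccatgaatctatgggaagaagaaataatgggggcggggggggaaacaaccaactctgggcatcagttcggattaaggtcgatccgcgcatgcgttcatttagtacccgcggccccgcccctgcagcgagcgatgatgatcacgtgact
Cdkn1a, chr17:29090729-29090978, plus strand: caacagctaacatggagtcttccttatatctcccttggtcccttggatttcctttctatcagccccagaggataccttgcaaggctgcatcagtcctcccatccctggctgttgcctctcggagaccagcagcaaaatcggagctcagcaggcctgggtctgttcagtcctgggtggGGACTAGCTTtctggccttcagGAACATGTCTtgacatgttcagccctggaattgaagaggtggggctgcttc
Gadd45a, chr6:67037408-67037657, minus strand: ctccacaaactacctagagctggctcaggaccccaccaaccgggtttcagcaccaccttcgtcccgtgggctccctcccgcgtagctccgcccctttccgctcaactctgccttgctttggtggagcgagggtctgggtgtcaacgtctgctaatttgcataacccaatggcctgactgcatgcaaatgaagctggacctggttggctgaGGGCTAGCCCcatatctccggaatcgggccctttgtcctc
Pawr, chr10:108331939-108332188, plus strand: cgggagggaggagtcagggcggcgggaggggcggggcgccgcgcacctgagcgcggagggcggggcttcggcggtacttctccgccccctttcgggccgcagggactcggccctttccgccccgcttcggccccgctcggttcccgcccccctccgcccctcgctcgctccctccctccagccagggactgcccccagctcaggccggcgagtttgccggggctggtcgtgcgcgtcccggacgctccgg
Counted back from the start at -1, the half-sites lie at -186 to -177 in Mdm2, -201 to -192 in Bax and -40 to -31 in Gadd45a. Cdkn1a has 2 separate matches, at -73 to -64 and -51 to -42, and whether they act together was not tested. RefSeq gives Cdkn1a another window, which holds no match, and the probe of another Cdkn1a transcript was not well above background on any array. Which window belongs to the transcript measured was not determined.

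Trp53 and the genes of its negative regulators came first. Trp53 had signals of 51.2, 67.0 and 80.4 on hairpins 1 to 3, against 34.2 on the control array. All 3 hairpins were above the control, by 0.93 ± 0.33 in the mean (1.90-fold, 95% interval 0.10 to 1.76, limma adjusted p = 0.964). The probe is spotted in 2 places, and on hairpin 3 these gave 49.2 and 131, while the control spots gave 33.3 and 35.1. Every hairpin spot was above both control spots, and the spots of hairpin 3 were the farthest apart. In these bulk samples more RNA of a gene per cell and more cells that express it cannot be told apart. The lowest signal called well above background was 20.8 or less on each of the 4 arrays before scaling. With normexp background correction the mean difference of Trp53 was 0.42.

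Mdm2, the ubiquitin ligase gene that is both a target and the main inhibitor of p53, was at 7533, 6872 and 8271 on hairpins 1 to 3 and 6328 on the control array. The hairpins did not overlap the control, with a mean of 0.25 ± 0.13 (95% interval -0.30 to 0.80, limma adjusted p = 0.964), which is 1.19-fold. For Mdm4, the gene of the related inhibitor of p53, the 2 probes above background disagreed. The brighter gave 51.1, 45.2 and 37.4 on the hairpins and 48.0 on the control array, with hairpins on both sides of the control. The other gave 34.3, 34.6 and 33.0 on the hairpins and 46.4 on the control array, all 3 below it, with a mean of -0.45 ± 0.04.

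**Figure D2:**
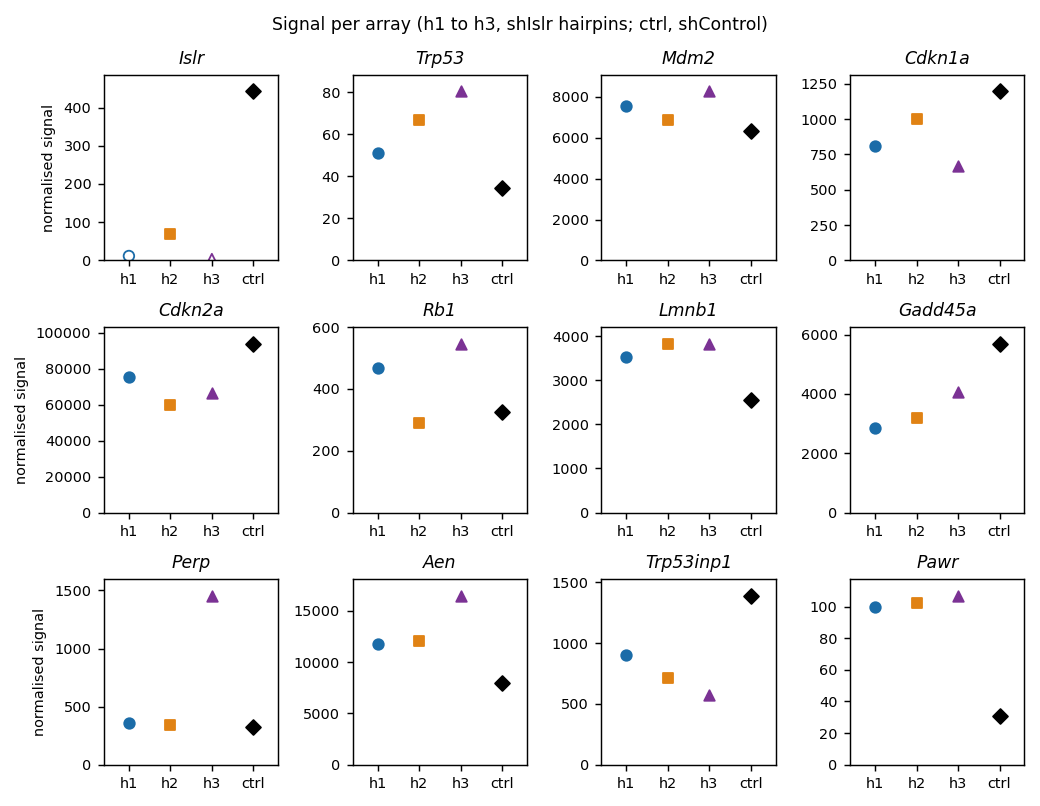
Normalised signal (y axis, linear, from 0) on the 3 shIslr arrays (h1 to h3) and the shControl array (ctrl) for Islr and the 11 members described in most detail. Each point is 1 array and open symbols are not well above background; Pawr and Trp53 are above the control on all 3 hairpins, Cdkn1a, Cdkn2a, Gadd45a and Trp53inp1 below it, and Perp stands out on hairpin 3 alone.

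The members include 5 genes of cyclin-dependent kinase inhibitors. Cdkn1a, Cdkn1b, Cdkn2a and Cdkn2c had all 3 hairpins below the control, and Cdkn2b had hairpins on both sides. The share of all genes with all 3 hairpins below the control was 24.6%. Cdkn1a encodes p21 and is the best known p53 target. It had signals of 809.7, 998 and 669.8 on hairpins 1 to 3, against 1195 on the control array. On the log2 scale the mean difference was -0.55 ± 0.29 (1.47-fold lower, 95% interval -1.31 to 0.21, limma adjusted p = 0.964). Cdkn1a is spotted 10 times per array, and every hairpin spot, from 563 to 1094, lay below every control spot, from 1137 to 1272. Without the 2 hairpin spots that carry an outlier flag the mean difference was -0.54. The hairpins differed among themselves by more than the spots did, with an SD of 0.29 between hairpins and 0.0832 on average between spots of an array. Spot-to-spot spread is technical and says nothing of how another control culture would vary.

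Cdkn2a, the locus of the INK4A inhibitor and of the p53 stabiliser ARF, had signals of 75328, 59664 and 66531 on hairpins 1 to 3, against 93955 on the control array. All 3 hairpins were below the control, with a mean difference of -0.49 ± 0.17 (95% interval -1.08 to 0.10, limma adjusted p = 0.964). The other Cdkn2a probe gave 4943, 4179 and 4581 on the hairpins and 6856 on the control array (-0.59 ± 0.12). Both probes carry the same transcript accession, and the files do not say whether they separate INK4A from ARF. Cdkn2b, the neighbouring INK4B gene, was at 8473, 6291 and 13465 on the hairpins and 9677 on the control array, below it on hairpins 1 and 2 and above it on hairpin 3. Its other probe had the same order of arrays (-0.08 ± 0.53, beside -0.11 ± 0.55).

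Cdkn2c, the INK4C inhibitor gene, had signals of 812, 869.7 and 818 on hairpins 1 to 3, against 1058 on the control array (-0.35 ± 0.05, limma adjusted p = 0.964). Its hairpins lay within a narrow range, apart from the control. Cdkn1b, the gene of the inhibitor p27, was at 9137, 8727 and 9812 on the hairpins and 11154 on the control array (-0.28 ± 0.09, limma adjusted p = 0.964). For both genes the difference was larger than the SD between hairpins, and the test across all genes did not call it.

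Rb1, the gene of the RB protein through which these inhibitors halt the cycle, was at 467, 290.0 and 547 on hairpins 1 to 3 and 327 on the control array. Hairpins 1 and 3 were above the control and hairpin 2 below it (0.36 ± 0.48, 95% interval -0.73 to 1.45). In the plot of replicated spots, all 10 spots of hairpins 1 and 3 lay above every control spot and all 10 of hairpin 2 below, so the split between hairpins exceeded the spread between spots. Lmnb1, the lamin B1 gene, had signals of 3527, 3829 and 3812 on hairpins 1 to 3, against 2559 on the control array. Its mean difference was 0.54 ± 0.07 (1.45-fold, 95% interval 0.04 to 1.04, limma adjusted p = 0.964), and all hairpin spots, from 3212 to 4069, lay above all control spots, from 2475 to 2648.

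**Figure D3:**
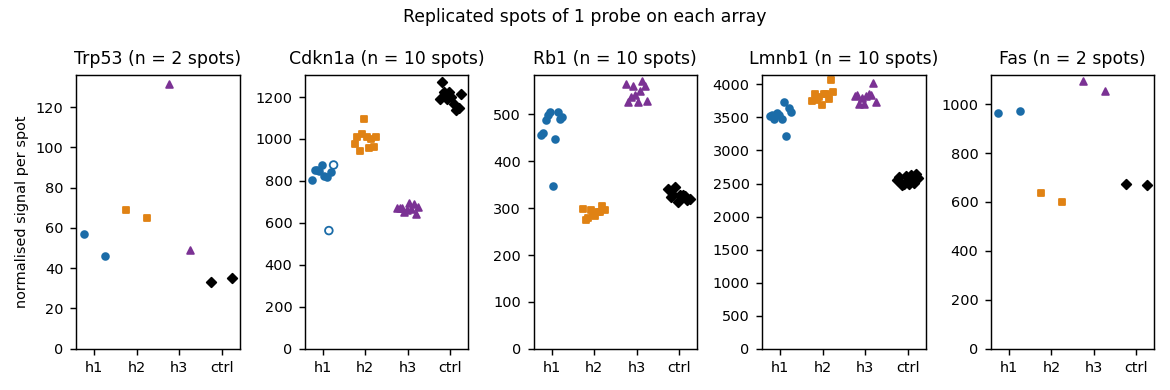
Normalised signal of each spot (y axis, linear, from 0) for the 5 members whose probe is spotted more than once, on the 3 shIslr arrays (h1 to h3) and the shControl array (ctrl). Open symbols carry an outlier flag; the 10 spots of Lmnb1 on every hairpin lie above the control spots, those of Cdkn1a below, and those of Rb1 on both sides.

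Arrest, repair and stress genes that p53 induces were mixed, with 1 of 10 above the control on all 3 hairpins, 4 below and 5 on both sides. The shares of all genes were 27.6% above and 24.6% below. Gadd45a, a DNA damage response gene whose product can bind PCNA and p21, had signals of 2851, 3199 and 4054 on hairpins 1 to 3, against 5696 on the control array. The mean difference was -0.77 ± 0.26 (1.71-fold lower, 95% interval -1.49 to -0.06, limma adjusted p = 0.964). Its relative Gadd45b was at 3273, 6719.5 and 4729 on the hairpins and 4590.3 on the control array, lower on hairpin 1, higher on hairpin 2 and near the control on hairpin 3. Sesn1, a sestrin gene of the antioxidant and mTORC1-restraining response, was at 1464, 1666 and 1459 on the hairpins and 2155 on the control array (-0.50 ± 0.11, limma adjusted p = 0.964). All 3 hairpins were below the control for Sesn1, but for Sesn2 hairpins 2 and 3 were above it (0.25 ± 0.25, with 1664, 2149 and 2326 on the hairpins and 1699 on the control array).

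Btg2, an antiproliferative gene, was at 158, 148 and 181 on the hairpins and 196 on the control array (-0.27 ± 0.15). Zmat3, an RNA-binding zinc finger gene, was at 812, 713 and 883 on the hairpins and 914 on the control array (-0.19 ± 0.16). Both were below the control on all 3 hairpins by amounts of 1.32-fold or less on any array. Plk2, a polo-like kinase gene, was the member of the group above the control on all 3, by 0.10 ± 0.06, with signals of 1258, 1169 and 1268 on the hairpins and 1145 on the control array. The cyclin G1 gene Ccng1 (-0.11 ± 0.18), the kinase gene Plk3 (0.22 ± 0.34) and Polk, the gene of a translesion DNA polymerase (0.19 ± 0.24), had hairpins on both sides of the control.

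Apoptosis genes lay above the control on all 3 hairpins for 5 of 11 members (Pawr, Perp, Aen, Bbc3 and Bax), below it for 1 (Trp53inp1) and on both sides for 5. The shares of all genes were 27.6% above and 24.6% below. Pawr, the gene of the pro-apoptotic leucine zipper protein PAR-4, had signals of 99.7, 103 and 107 on hairpins 1 to 3, against 30.6 on the control array. The hairpins were close to each other and about as far above the control on each array, by 3.26-fold on hairpin 1, 3.35-fold on hairpin 2 and 3.49-fold on hairpin 3. The mean difference was 1.75 ± 0.05 (95% interval 1.26 to 2.24), which gave the smallest p of the members but did not pass (limma adjusted p = 0.0754). The probe is spotted once per array, and the scanner software gave its signal an error of 16.4% on the control array and 10.4% to 11.0% on the hairpin arrays. With normexp background correction the difference of Pawr was 0.83 (adjusted p = 0.693), and over all the alternatives tried the adjusted p ranged from 0.0699 to 0.98.

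Aen, a nuclease gene that p53 induces in apoptosis, was at 11710.0, 12018 and 16440.5 on hairpins 1 to 3 and 7971 on the control array. All 3 hairpins were above it, by 0.73 ± 0.27 (95% interval -0.01 to 1.47, limma adjusted p = 0.964), and the other Aen probe gave 0.70 ± 0.29. Bbc3, the gene of the BH3-only protein PUMA, was at 1166, 1247 and 2076 on the hairpins and 993 on the control array. Bax, the gene of the pore-forming effector that PUMA helps to activate, was at 8687, 6674 and 7941 on the hairpins and 6262 on the control array. Their mean differences were 0.54 ± 0.46 and 0.30 ± 0.19. Both had hairpins that did not overlap the control, and for Bbc3 hairpin 3 was the farthest from it.

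Trp53inp1, the gene of a stress-induced nuclear protein that promotes autophagy and cell death, had signals of 904, 717 and 577 on hairpins 1 to 3, against 1389.8 on the control array. It was below the control on all 3, with a mean difference of -0.95 ± 0.32 (1.93-fold lower, 95% interval -1.77 to -0.13, limma adjusted p = 0.964). The other Trp53inp1 probe, at 79.1, 63.8 and 54.7 on the hairpins and 110.1 on the control array, gave -0.76 ± 0.27 and the same order of arrays. Trp53 and Trp53inp1 lay on opposite sides of the control.

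Hairpin 3 stood apart for several apoptosis genes. Perp, the gene of a membrane protein of desmosomes and p53-dependent death, had signals of 361, 341 and 1454 on hairpins 1 to 3, against 322 on the control array, which is 4.52-fold higher on hairpin 3 but 1.12-fold and 1.06-fold on hairpins 1 and 2. Without hairpin 3 the mean difference of Perp was 0.12 in place of 0.81 ± 1.18. Pmaip1, the gene of the BH3-only protein NOXA, was at 557, 1019 and 1791 on the hairpins and 691 on the control array, lower on hairpin 1 and highest on hairpin 3. Without hairpin 3 its mean difference was 0.13 in place of 0.54 ± 0.84. For the death receptor gene Fas, hairpin 2 stood apart instead. Fas was at 969, 618 and 1076 on the hairpins and 672 on the control array, above it on hairpins 1 and 3 and below it on hairpin 2.

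Single hairpins were also set against the control at a size of 2-fold, a description with 1 array on each side and no test. On hairpin 3, 6 of 31 members were at least 2-fold above the control (Trp53, Bbc3, Pmaip1, Perp, Aen and Pawr), beside 3.17% of all genes, and 1 was at least 2-fold below it (Trp53inp1), beside 5.45%. On hairpin 1 there was 1 member at least 2-fold above (Pawr) beside 1.46% of all genes, and 1 below (Ei24, a gene of an endoplasmic reticulum protein, 2.02-fold lower) beside 3.99%. On hairpin 2 there was 1 above (Pawr) beside 1.88%, and 0 below beside 4.1%. Hairpin 3 was the highest of the 4 arrays for 15 of 31 members and 7 of 11 apoptosis genes, beside 34% of all genes. Of the 6, Bbc3 and Aen were just past 2-fold on hairpin 3, at 2.09-fold and 2.06-fold. Trp53 was counted by the average of spots at 131 and 49.2, with control spots at 33.3 and 35.1. With normexp background correction the count at least 2-fold above on hairpin 3 was 2 in place of 6, beside 1.84% of all genes. With quantile normalization it was 5, beside 3.25%. Over genes above background on all 4 arrays, the shares at least 2-fold below were 1.53%, 2.18% and 3.18% on hairpins 1 to 3.

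The remaining apoptosis genes that were measured had hairpins on both sides of the control. Tnfrsf10b, the TRAIL receptor gene, was at 1259, 2087 and 1767 on the hairpins and 1443 on the control array (0.21 ± 0.37). Phlda3, the gene of a pleckstrin homology protein that restrains Akt, was at 5216, 5888 and 6786 on the hairpins and 5598 on the control array (0.08 ± 0.19). Ei24 was at 282, 581 and 457 on the hairpins and 571 on the control array (-0.44 ± 0.53), low on hairpin 1 and near the control on hairpin 2. Eda2r was at 5.68, 4.94 and 3.79 on the hairpins and 7.88 on the control array, none well above background, so no difference is given.

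**Figure D4:**
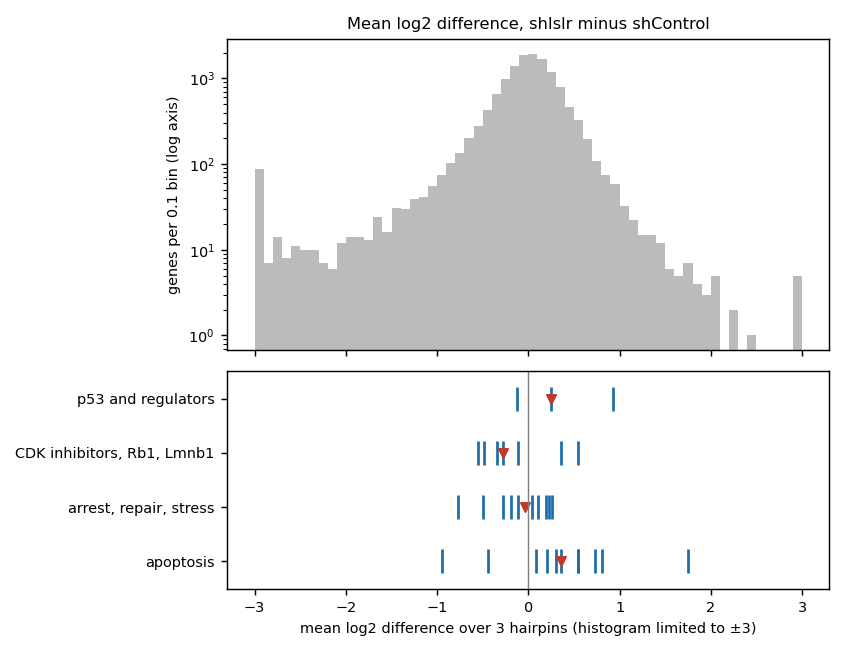
Upper panel, number of genes (y axis, log scale) by mean log2 difference over the 3 hairpins (x axis) for all 13567 genes tested, with genes beyond 3 in the end bins; lower panel, the 31 members by role (blue ticks) with each group's median (red triangle). The medians of the groups lie between -0.28 and 0.36, and Pawr is the member farthest to the right.

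By role, the median of the mean difference was 0.36 for apoptosis genes, 0.25 for p53 and its regulators, -0.04 for arrest, repair and stress genes and -0.28 for the kinase inhibitors with Rb1 and Lmnb1, beside 0.00988 over all genes. On hairpins 1 to 3 the apoptosis genes had medians of 0.17, 0.09 and 0.68, the highest on hairpin 3. The kinase inhibitor group had medians of -0.29, -0.28 and -0.18.

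Genes connected with the members were counted from further lists, also chosen with earlier results of these data known. For comparison, 27.6% of all genes tested had all 3 hairpins above the control and 24.6% had all 3 below it. Among 28 other p53 target genes, 7 had all 3 hairpins above the control, 7 below and 14 on both sides, with medians of -0.12, 0.10 and -0.02 on hairpins 1 to 3. Pidd1, the gene of a death domain protein, was at 66.9, 55.8 and 52.0 on the hairpins and 37.1 on the control array (0.64 ± 0.19), and the metalloreductase gene Steap3 was at 1826, 1090.4 and 1364 on the hairpins and 2332 on the control array (-0.74 ± 0.37). The mTORC1 inhibitor gene Ddit4 (0.45 ± 0.17) was above the control on all 3 hairpins and the excision repair nuclease gene Ercc5 (-0.39 ± 0.14) below it. None of the 28 passed limma's test (smallest adjusted p = 0.964).

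The kinases and cyclins that the inhibitors bind were above the control on all 3 hairpins for 5 of 7 genes, with 0 below. The shares of all genes were 27.6% above and 24.6% below. Cdk4, the kinase gene held by INK4 proteins, was at 55585, 54067 and 54344 on the hairpins and 46264 on the control array (0.24 ± 0.02), and the D cyclin gene Ccnd3 at 13589, 14547 and 12938 on the hairpins and 10460.4 on the control array (0.39 ± 0.08). Cdk2 (0.49 ± 0.27) and its cyclin gene Ccne1 (0.57 ± 0.34) also had all 3 hairpins above the control. Of 5 other inhibitor and pocket protein genes, the pocket protein gene Rbl1 (0.35 ± 0.30) and the phosphatase gene Cdkn3 (0.38 ± 0.31) were above the control on all 3 hairpins and Rbl2 (-0.24 ± 0.16) below it. A further list held 25 genes that p21 and RB are known to repress through E2F and DREAM complexes. Of these, 24 had all 3 hairpins above the control and 0 below, beside 27.6% and 24.6% of all genes. Their medians were 0.39, 0.92 and 0.47 on hairpins 1 to 3. Among them the E2F gene E2f2 was at 573, 559.9 and 527 on the hairpins and 279 on the control array (0.99 ± 0.06, limma adjusted p = 0.416), and Foxm1, Ccna2 and Birc5, genes of mitotic entry, division and survival, were at 0.87 ± 0.28, 0.75 ± 0.21 and 0.86 ± 0.28. None of these lists had a member that passed.

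The BCL2 family outside the members had 4 of 10 genes above the control on all 3 hairpins, 1 below and 5 on both sides. For this list and the next, the shares of all genes were 27.6% above and 24.6% below. The BAX relative gene Bok was at 2544, 2550.2 and 3312 on the hairpins and 1779 on the control array (0.64 ± 0.22), Bid, the gene of a BH3-only link to death receptors, at 0.60 ± 0.36, the effector gene Bak1 at 0.19 ± 0.06, and the BH3-only gene Bmf, below the control on all 3, at -0.81 ± 0.63. Of 27 secretory and marker genes of senescence, 21 passed the filter, 18 of them with signal above background on every array. Among the 21, 8 were above the control on all 3 hairpins and 11 on both sides. The other 2, Igfbp5 and Il1a, were below it, and both passed the filter only through the control array. Mmp3 passed by the same route and had hairpins on both sides of the control (-0.67, -1.63 and 1.11 on hairpins 1 to 3). This route admits genes that are low on the hairpins, and its part in the count below the control was not tested. Il6, a cytokine of the senescent secretome, was at 942, 202 and 1071 on the hairpins and 106 on the control array (2.47 ± 1.34). Hmgb2, a chromatin protein gene whose loss is known to accompany senescence, was at 24757, 29704 and 26107 on the hairpins and 15916 on the control array (0.75 ± 0.14). Igfbp5, a growth factor binding protein gene, was not well above background on any hairpin, against 149.5 on the control array, so that it was at least 6.91-fold, 7.92-fold and 10.0-fold lower on hairpins 1 to 3 against the lowest signal called well above background on each. No gene of either list passed. Igfbp5 had the smallest limma adjusted p of the 2 lists, 0.0679, which was below the 0.0754 of Pawr but rests on hairpin signals not well above background.

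**Figure D5:**
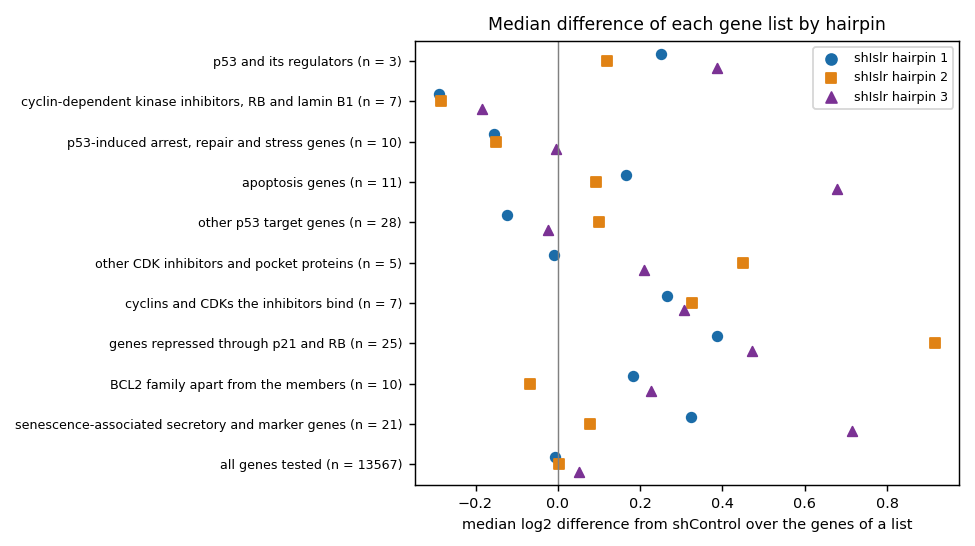
Median log2 difference from the shControl array (x axis) over the measured genes of each list (y axis, n genes), for the 3 shIslr hairpins (points), with all 13567 genes in the lowest row. The genes repressed through p21 and RB lie to the right of 0 on all 3 hairpins, and the medians of the apoptosis genes are 0.17, 0.09 and 0.68 on hairpins 1 to 3.

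The lone control array limits every comparison here. With 3 arrays against 1, an exact permutation test of a single gene cannot give a one-sided p below 0.25, and the limma fit takes the spread between hairpins for that of the control.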

How the data were processed

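Total RNA of 4 cultures was measured on 4 one-colour arrays (Cy3). Per the file headers, the authors extracted the spots with Agilent Feature Extraction 11.5.1.1, and the 4 files carry 1 scan time, so no batch could be a block. The deposited values used are processed signal intensities on a linear scale, background-subtracted within an array by the authors' software, and its flags for spots above background. The deposited series table held the same intensity times 1 factor per array (2.02 to 2.25), whose choice is not stated.

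The 59305 non-control features (55681 probes) were taken as log2 minus each array's 75th percentile and averaged per probe. Probes were named by matching their accession, without version, to RefSeq (28026 of 55681). Kept were probes well above background on the control or all 3 hairpin arrays, and the brightest kept probe stood for a gene. Genes were tested by a two-sided moderated test (lmFit, then eBayes, of limma 3.58.1, run under R 4.3.3), tested on simulated data first, and the fit gave the intervals, which are not adjusted for the number of genes. The alternatives were median or quantile scaling, normexp (offset 50, on median spot signal), the series table, other filters, the mean over probes, an intensity trend and each hairpin left out.

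The members, lists and tests were chosen with earlier results of these data known. Described in full are Islr, Trp53, Cdkn1a, Cdkn2a, Mdm2, Rb1, Lmnb1 and members with a mean difference of at least 1.5-fold or with all 3 hairpins at least 1.3-fold to one side. Of each other list, up to 4 genes were named by the largest value of the smallest of their 3 differences. A gene that this rule names is not reported here. P-values measure only the spread between these arrays, whose small number limits the precision.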

Additional observations from a re-analysis of the deposited data

How the results depend on the processing

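The number of genes called depended on the settings. Of the members, 0 were called at an adjusted p under 0.05 in the main fit, so their count could not fall. Over all genes, limma called 47 lower at 75th percentile scaling, 75 with quantile normalization, 81 at an adjusted p under 0.1, and 0 with normexp, with no filter, with genes above background on all 4 arrays or with an intensity trend. Leaving out each hairpin in turn gave 0 to 0. At an adjusted p under 0.1, 2 genes were called higher, of which 1 was a member, Pawr. Members with all 3 hairpins above the control numbered 9, and 10 to 14 with a hairpin left out, 14 without hairpin 1, when 2 hairpins need to agree and the share over all genes was 32.3% to 37.4% (36.9% without hairpin 1). Those below numbered 9, and 10 to 11 with a hairpin left out, beside 31.6% to 33.3% of all genes. Members at least 1.5-fold above on all 3 numbered 1, with 2 under median or quantile scaling and 1 to 3 with a hairpin left out (3 without hairpin 1). Those at least 1.5-fold below numbered 1, with 0 under normexp, the mean over probes or a 2-fold rule and 1 to 2 with a hairpin left out (2 without hairpin 3). Over all genes the count above was 130, with 39 under normexp, 412 with no filter, 32 at 2-fold and 179 to 422 with a hairpin left out. The count below was 413, with 189 under normexp, 625 with no filter, 164 above background on all 4 arrays, 229 at 2-fold and 513 to 673 with a hairpin left out. Members whose mean difference changed sign had a mean near 0 and hairpins on both sides of the control. Leaving out a hairpin gave -0.22 to 0.00198 for Mdm4 and -0.41 to 0.14 for Cdkn2b. For Gadd45b it gave -0.22 to 0.30 (-0.00923 under normexp), and for Phlda3 -0.0146 to 0.18. The SD between hairpins was 0.55 for Cdkn2b and 0.52 for Gadd45b. The cause was not tested. No paired analysis was possible because there is 1 control array and its label carries no replicate number. With 1 control array, an error in its value enters all 3 differences of a gene, and dim probes such as those of Trp53 and Pawr rest on signals near background.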
